A study of Homo sapiens with 24 samples.

Results

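The 50 genes described here encode glutamate receptors, the auxiliary and scaffold proteins that hold those receptors at a synapse, adhesion proteins that join the membranes of a synapse, and proteins of secretory vesicles. They were chosen by gene symbol, with no threshold on a measured value but with earlier results of these data known. Each matched 1 of the 58676 gene rows of the deposited table. By role they comprise 4 AMPA, 5 NMDA, 5 kainate or delta and 4 metabotropic glutamate receptor genes, 4 AMPA receptor auxiliary genes (CACNG), 5 neuroligins and neurexins, 6 SLITRK and 4 LRRTM genes, 6 scaffold genes and 7 vesicle genes. Of these 50 genes, 33 had enough counts to be tested at day 5, and 15 had too few counts for any test.

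HSJD-DIPG-007 is an established diffuse midline glioma (DMG) cell line. All libraries, vehicle controls included, came from this 1 line, whose genotype is labelled H3F3A K27M, ACVR1 R206H and PIK3CA MIS, and which was grown as spheroids. Cells received vehicle or LLY-283, an inhibitor of the arginine methyltransferase PRMT5, at the dose labelled GI(40). The study's results text describes a single dose, whereas its methods give a second dose of either when the medium was replaced after day 5. The number of doses behind the day 7 and day 10 libraries is thus not settled here. Polyadenylated RNA was sequenced in 24 libraries, 12 for each treatment, and each treatment had 3 libraries for day 0, 3 for day 5, 2 for day 7 and a single library for day 1, 2, 3 and 10. Libraries that share a treatment and a day are technical repeats per the study, so the p-values below measure the spread between repeats and not that between independent cultures. Library totals lay between 13835205 and 23190369 counts, so that 1 CPM (a count scaled to library size, with TMM factors over all 24 libraries) stood for roughly 13.5 to 22.8 counts. The day 7 libraries of repeat 2 stood apart from those of repeat 1 (chi-square per degree of freedom between repeats of 11.2 and 13.4, against 1.65 to 3.79 at days 0 and 5), and day 7 is given with and without them.

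At a glutamatergic synapse, AMPA, kainate and NMDA receptors are ion channels opened by glutamate, metabotropic receptors signal through G proteins, and scaffold proteins beneath the membrane tether both. Neuroligins, SLITRKs and LRRTMs are cell surface proteins that bind neurexins or receptor tyrosine phosphatases on the facing membrane. Oligodendrocyte precursor cells, the lineage that DMG cells resemble, carry glutamate receptors and receive synapses from neurons, and glioma cells are known to form similar contacts. The cultures were checked against markers of that lineage. The 12 oligodendrocyte precursor markers summed to between 4607 and 6946 CPM in the 24 libraries, with 8 of them at 10 or more counts in every library, although GPR17 and CNTN1 stayed under 10 counts in all. No gene of 8 microglial markers reached 10 counts in every library, and their sum was at most 2.60 CPM.

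The promoter sequences of 4 genes are shown because GRIK3, GRM3, NLGN2 and SLITRK2 were higher with LLY-283 at day 5 and were, of the genes with that result, those with a single RefSeq start and no annotated exon in the window. Each is the 250 bases upstream of the RefSeq start on GRCh38.p14, read 5′ to 3′ on the strand of the gene, with capitals for matches to the motifs described below.
GRIK3, chr1:37034516-37034765, minus strand: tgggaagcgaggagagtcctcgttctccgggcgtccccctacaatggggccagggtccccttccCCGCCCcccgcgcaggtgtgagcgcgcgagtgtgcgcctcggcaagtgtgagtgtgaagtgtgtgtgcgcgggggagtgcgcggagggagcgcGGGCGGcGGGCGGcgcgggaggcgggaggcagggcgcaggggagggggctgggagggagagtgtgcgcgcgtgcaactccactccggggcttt
GRM3, chr7:86643659-86643908, plus strand: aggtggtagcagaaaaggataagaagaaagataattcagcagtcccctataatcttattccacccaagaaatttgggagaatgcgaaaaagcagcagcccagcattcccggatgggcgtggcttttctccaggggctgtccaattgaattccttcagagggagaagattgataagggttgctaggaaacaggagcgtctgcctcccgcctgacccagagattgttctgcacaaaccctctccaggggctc
NLGN2, chr17:7407595-7407844, plus strand: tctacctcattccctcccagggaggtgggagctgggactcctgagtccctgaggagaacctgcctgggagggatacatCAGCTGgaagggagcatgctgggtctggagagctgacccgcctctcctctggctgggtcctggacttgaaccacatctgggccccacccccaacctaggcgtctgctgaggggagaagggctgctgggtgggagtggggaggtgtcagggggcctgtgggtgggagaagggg
SLITRK2, chrX:145817579-145817828, plus strand: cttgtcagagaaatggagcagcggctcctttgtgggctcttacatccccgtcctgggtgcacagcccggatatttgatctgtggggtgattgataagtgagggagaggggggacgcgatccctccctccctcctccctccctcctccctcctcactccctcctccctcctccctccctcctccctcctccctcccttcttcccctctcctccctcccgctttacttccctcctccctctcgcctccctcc

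The motifs searched, on both strands, were the E-box CAGCTG, the GC box GGGCGG, the cAMP response element TGACGTCA and TATAAA. GRIK3 held the GC box at positions -186, -93 and -86, counted from the start of transcription, and NLGN2 held the E-box at position -172, while GRM3 and SLITRK2 held no match. The NLGN2 window lies inside the gene as GENCODE draws it (chr17:7404874-7419860). RefSeq windows were found for 36 of the 50 genes, in 70 entries. GGGCGG was in 40% of these 70 windows and in 42.6% of all 35116 promoter windows, CAGCTG in 11.4% and 14%, TATAAA in 5.71% and 10.7%, and TGACGTCA in 2.86% and 1.65%. A match describes letters in a window and is not a bound site.

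**Figure D1:**
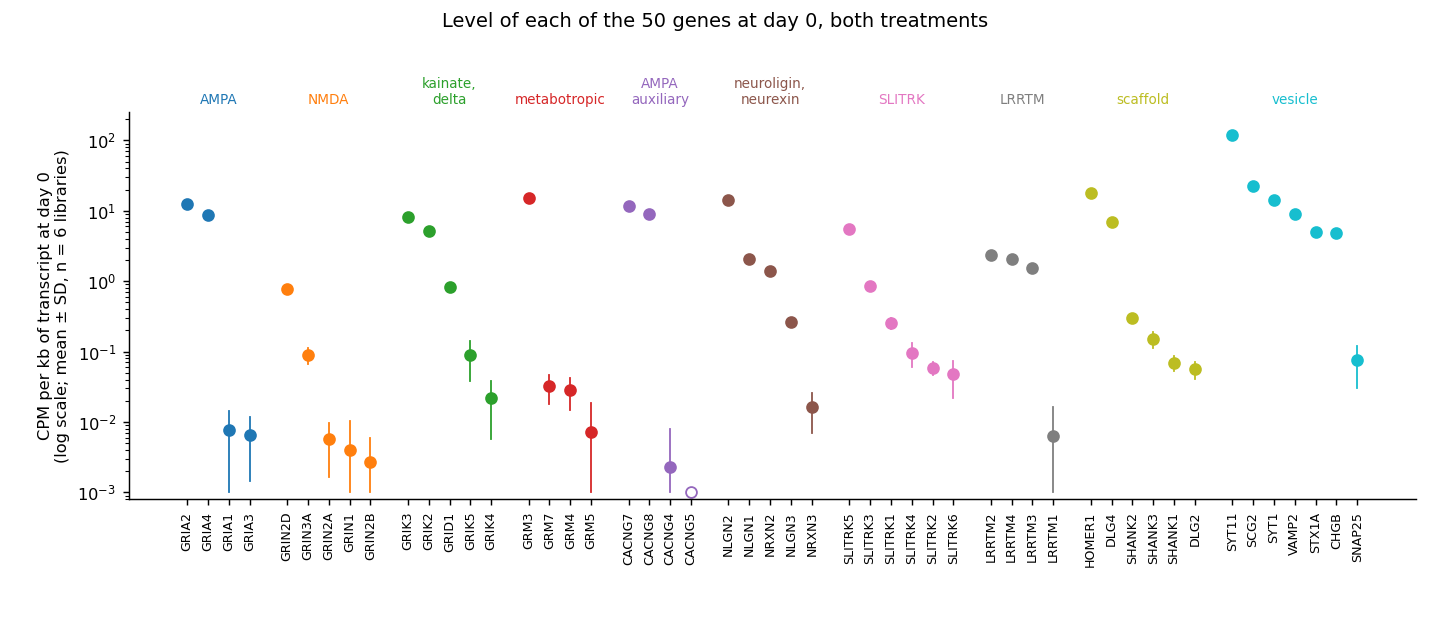
Level of each of the 50 genes at day 0 in CPM per kilobase of transcript, on a log axis, as mean ± SD over the 6 day 0 libraries of both treatments (error bars are cut at 0.001, and the open point is CACNG5 at 0). A few of the listed genes carry each group: SYT11 was highest at 119, and in every receptor group at least 1 gene lay under 0.1 CPM per kilobase.

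In all 24 libraries 1 or 2 genes made up most of each receptor group among the listed genes. Other receptor genes, such as GRIK1, GRM8 and GRIN2C, are outside these groups, so a share need not be that of a whole family. Levels of different genes are compared here per kilobase of the canonical transcript. GRIA2 and GRIA4, encoding AMPA receptor subunits, together made up between 99.9% and 100% of the summed level of the 4 AMPA receptor genes in all 24 libraries, and GRIA2 alone held between 57.7% and 74%. CACNG7 and CACNG8, which encode transmembrane proteins that regulate AMPA receptors, made up at least 99.9% of the 4 CACNG genes. GRM3, a metabotropic receptor that lowers cAMP, made up between 98.5% and 100% of the 4 metabotropic genes. GRIK2 and GRIK3, kainate receptor subunits, held between 92.9% and 97.2% of the kainate and delta group. Among the adhesion genes, NLGN2 held between 75.3% and 83.6% of the neuroligin and neurexin group and SLITRK5 between 69.4% and 86% of the SLITRK group, whereas LRRTM2, LRRTM3 and LRRTM4 each held between 18.8% and 53.2% of theirs. HOMER1 and DLG4 were the main scaffold genes, with medians of 70.8% and 27.3% of the group, and SYT11 had a median of 72.3% of the vesicle group.

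The 5 listed NMDA receptor genes were low. GRIN2D, a regulatory subunit, had between 82.6% and 98.7% of their summed level. GRIN2C and GRIN3B are not among the 5. GRIN1, the subunit that every functional NMDA receptor contains, was at 0 in 18 of 24 libraries and had 3 counts at most, so that its transcript was at the limit of what this depth can show. GRIN2D itself was at 3.97, 4.07 and 4.34 CPM in the vehicle libraries of day 0.

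The 15 genes that entered no test had few or no counts in every library. Their highest counts in any library were 1 for GRIA3, CACNG4 and LRRTM1, 2 for CACNG5, 3 for GRIN1 and GRIN2A, 4 for GRIA1, 5 for GRIN2B and GRM5, 6 for GRM7 and SNAP25, 7 for SLITRK6, 8 for GRM4, 10 for NRXN3 and 14 for GRIK5. SNAP25, the SNARE protein of the plasma membrane that works with VAMP2 and STX1A in neuronal vesicle release, was thus near absent although VAMP2 and STX1A were measured. A library with 0 counts allows up to 3 counts of the transcript, and this limit covers counting error only. GRIN3A and SHANK1 were tested only in the comparisons that include day 0. In the vehicle libraries of day 0 GRIN3A was at 0.654, 1.07 and 0.664 CPM and SHANK1 at 0.604, 0.630 and 0.920 CPM.

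The first comparison asked whether the 50 genes differed between LLY-283 and vehicle after 5 days. Because the 50 were chosen with earlier results of these data known, shares over all genes stand beside theirs as description. They do not test the set. Of the 33 genes tested, 20 were higher with LLY-283 and 0 were lower at an adjusted p under 0.01 (edgeR quasi-likelihood test, Benjamini-Hochberg over 16491 genes). Of all genes tested, 26.1% were called, 12% higher and 14.1% lower. At an unadjusted p under 0.05, 23 of the 33 passed and all 23 were higher. Of all 16491 genes, 7328 passed that threshold in either direction. The median log2 fold change was 0.38 over the 33 genes and 0.02 over all genes, and 30 of the 33 were positive, against 52.9% of all genes. In 25 of the 33 every LLY-283 library lay above every vehicle library, and in 1, HOMER1, every LLY-283 library lay below, while such separation in either direction was seen in 46.3% of all genes and the upward kind in 20.8%. The count filter can keep a gene through 1 treatment alone, as it did for SLITRK2, so these 33 are not all members and the 20 include 1 gene that had to differ. NLGN3 (15, 16 and 8 counts with vehicle) and GRIK4 (14, 7 and 7) also passed partly through their LLY-283 libraries, as did DLG2 and SHANK3. NLGN3 is among the 20, and SLITRK2, NLGN3 and GRIK4 are among the 25 that separated upward. DLG2, GRIK4 and SLITRK2 were tested at day 5 but not at day 0.

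**Figure D2:**
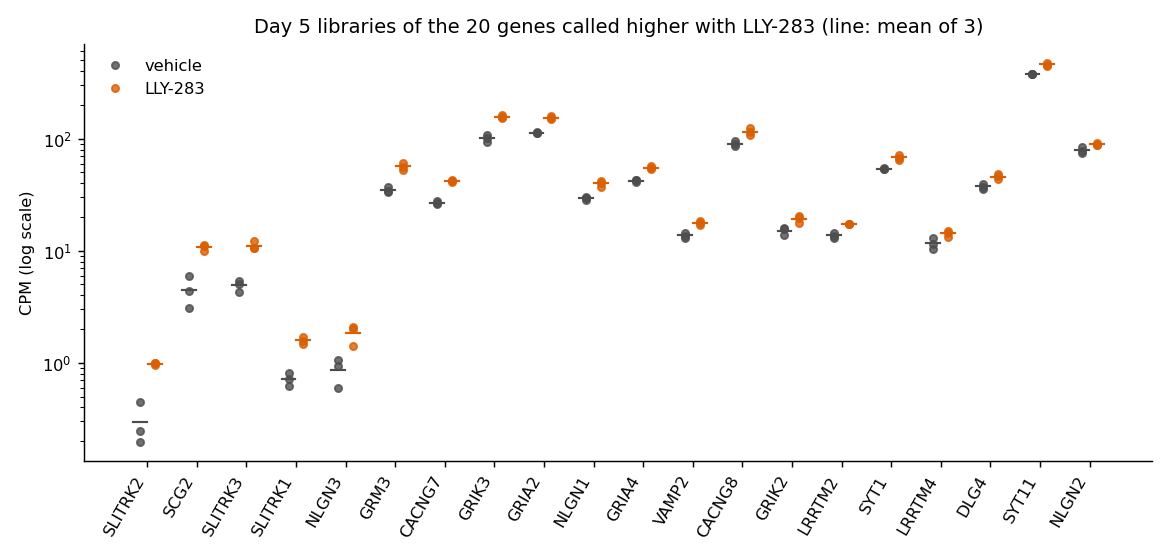
CPM on a log axis of the 20 genes called higher with LLY-283 at day 5, with 1 point per library (3 of each treatment) and a line at the mean. The LLY-283 libraries sit above the vehicle libraries in all 20 genes, from SLITRK2 with the largest ratio on the left to NLGN2 with the smallest on the right.

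Both AMPA receptor genes and both listed auxiliary genes that could be tested were higher with LLY-283. GRIA2 (chr4:157204182-157387146), whose edited subunit makes AMPA receptors impermeable to calcium, was at 113, 114 and 112 CPM with vehicle and 151, 158 and 154 CPM with LLY-283 (1.39-fold, log2 fold change 0.48 ± 0.039 SE, adjusted p = 1.6e-10). GRIA4 (chr11:105609535-105982090), another AMPA receptor subunit, was at 43, 40.9 and 42.5 CPM against 57, 54.4 and 53.9 CPM (1.33-fold, log2 fold change 0.41 ± 0.05 SE, adjusted p = 2.2e-07). In both genes the treatments did not overlap, and the repeats of a treatment differed by less than the gap between treatments. The GRIA4 call was lost in 1 of 14 alternative fits, with adjusted p up to 0.024. CACNG7 (chr19:53909278-53943950) was at 26.9, 27.7 and 26 CPM with vehicle and 40.8, 42 and 42.6 CPM with LLY-283 (1.58-fold, log2 fold change 0.66 ± 0.058 SE, adjusted p = 7.5e-10). CACNG8 (chr19:53962937-53990215), its neighbour on the chromosome, was at 90.1, 95 and 86.1 CPM against 115, 124 and 108 CPM (1.30-fold, log2 fold change 0.38 ± 0.05 SE, adjusted p = 4.2e-06). CACNG8 shares exon sequence with the microRNA gene MIR935 on the same strand.

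Among the listed kainate and delta receptor genes, 2 of 4 tested were higher with LLY-283 than with vehicle. GRIK3 (chr1:36795527-37034515), whose promoter held the GC boxes above, was at 108, 102 and 93.6 CPM with vehicle and 155, 151 and 161 CPM with LLY-283 (1.57-fold, log2 fold change 0.65 ± 0.045 SE, adjusted p = 8.1e-11). GRIK2 (chr6:100962701-102081622) was at 15.7, 13.7 and 16 CPM against 20.4, 17.5 and 19.7 CPM (1.29-fold, log2 fold change 0.37 ± 0.085 SE, adjusted p = 0.00096), and the lowest LLY-283 library was close to the highest vehicle library. Its call was lost in 3 of 14 alternative fits, with adjusted p up to 0.016. GRIK4, a subunit that needs GRIK1 to GRIK3 to form a channel, was at 0.870, 0.460 and 0.517 CPM against 1.17, 0.947 and 0.900 CPM and did not pass (1.63-fold, log2 fold change 0.70 ± 0.37 SE, adjusted p = 0.14). GRID1, a delta receptor that binds cerebellins, was at 3.42, 2.83 and 2.95 CPM against 3.44, 2.84 and 2.65 CPM, and its treatments overlapped (0.983-fold, log2 fold change -0.025 ± 0.2 SE, adjusted p = 0.93).

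GRM3 (chr7:86643909-86864879) had the largest log2 fold change of the receptor genes called among the 50. It was at 36.9, 34.4 and 33.8 CPM with vehicle and 61.1, 52.6 and 55.7 CPM with LLY-283 (1.63-fold, log2 fold change 0.71 ± 0.057 SE, adjusted p = 1.5e-10). The GRM3 call was lost in 1 of 14 alternative fits, with adjusted p up to 0.051. An antisense gene, GRM3-AS1, overlaps its exons on the opposite strand, and the sources used here do not say whether counting used strand, although the library kit was directional. The single NMDA receptor gene of the 50 that was tested, GRIN2D, was at 4.04, 5.32 and 4.06 CPM against 5.42, 5.79 and 6.05 CPM. The treatments did not overlap, and GRIN2D did not pass at 0.01 (1.31-fold, log2 fold change 0.39 ± 0.15 SE, adjusted p = 0.049).

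Of the 5 SLITRK genes tested, 3 were higher with LLY-283. SLITRK2 (chrX:145817829-145829856), which like other SLITRKs binds receptor tyrosine phosphatases across the synaptic cleft, had 4, 3 and 6 counts with vehicle and 17, 19 and 19 counts with LLY-283, or 0.248, 0.197 and 0.443 against 0.991, 0.999 and 0.950 CPM (3.37-fold, log2 fold change 1.75 ± 0.43 SE, adjusted p = 0.0019), after 10, 7 and 9 counts in the vehicle libraries of day 0. With under 10 counts in each vehicle library, SLITRK2 passed the count filter through the LLY-283 libraries alone and so had to differ, and its call was lost in 4 of 13 alternative fits (adjusted p = 0.022 with DESeq2). SLITRK3 (chr3:165186720-165197109), which acts at inhibitory synapses, was at 5.09, 5.32 and 4.28 CPM with vehicle and 10.5, 12.1 and 10.6 CPM with LLY-283 (2.29-fold, log2 fold change 1.2 ± 0.13 SE, adjusted p = 1.8e-08). SLITRK1 (chr13:83877205-83882474) was at 0.621, 0.723 and 0.813 CPM against 1.57, 1.47 and 1.70 CPM (2.24-fold, log2 fold change 1.16 ± 0.31 SE, adjusted p = 0.0043). Its vehicle libraries had 10, 11 and 11 counts, and the call was lost in 8 of 14 alternative fits, with adjusted p up to 0.052. The gap between treatments in SLITRK3 was several times the spread of either. The other SLITRK genes tested moved less, with SLITRK5, the most abundant of the family, at 30.6, 31.3 and 32.2 CPM against 34.2, 35.1 and 35.8 CPM (1.14-fold, log2 fold change 0.19 ± 0.058 SE, adjusted p = 0.012) and SLITRK4 at 0.994, 0.854 and 1.48 CPM against 1.34, 1.10 and 1.45 CPM (1.2-fold, log2 fold change 0.27 ± 0.31 SE, adjusted p = 0.54). SLITRK1, SLITRK2 and SLITRK5 each overlap an exon of a gene on the opposite strand.

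All 3 listed neuroligins were higher with LLY-283. NLGN1 (chr3:173396284-174294372), found at excitatory synapses, was at 30.2, 28.5 and 29.4 CPM with vehicle and 41.8, 37.2 and 40.5 CPM with LLY-283 (1.38-fold, log2 fold change 0.46 ± 0.06 SE, adjusted p = 5.0e-07). NLGN2 (chr17:7404874-7419860), found at inhibitory synapses, was at 78.2, 83.8 and 74.2 CPM against 88.4, 87.1 and 91 CPM, the smallest called change of the 20 (1.15-fold, log2 fold change 0.2 ± 0.046 SE, adjusted p = 0.001). The NLGN2 call was lost in 4 of 14 alternative fits, with adjusted p up to 0.071. NLGN3 (chrX:71144821-71175255), whose shed form is a known growth signal for glioma cells, was at 0.932, 1.05 and 0.591 CPM against 1.40, 2.00 and 2.10 CPM (2.16-fold, log2 fold change 1.11 ± 0.31 SE, adjusted p = 0.0059). Both treatments of NLGN3 spread widely around a low level, and the call was lost in 6 of 13 alternative fits, with adjusted p up to 0.042. NRXN2, a presynaptic partner of neuroligins, was at 7.45, 8.48 and 7.61 CPM against 10.0, 8.57 and 8.45 CPM, with overlap (1.17-fold, log2 fold change 0.22 ± 0.12 SE, adjusted p = 0.14), and NRXN2-AS1 lies opposite its exons.

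Among the LRRTM genes, which bind neurexins at excitatory synapses, LRRTM2 (chr5:138868921-138875368) was at 14.3, 13.1 and 13.7 CPM with vehicle and 17.5, 17.1 and 17.1 CPM with LLY-283 (1.28-fold, log2 fold change 0.36 ± 0.082 SE, adjusted p = 0.001). This call was lost in 3 of 14 alternative fits, with adjusted p up to 0.036. LRRTM2 shares exon sequence with CTNNA1, and LRRTM3 with CTNNA3, on the opposite strand. LRRTM4 (chr2:76747685-77593319) was at 10.4, 11.4 and 13 CPM against 14.3, 15.1 and 13.4 CPM (1.26-fold, log2 fold change 0.33 ± 0.10 SE, adjusted p = 0.0086), and this call was lost in 7 of 14 alternative fits. LRRTM3 was at 14.5, 12.9 and 12.3 CPM against 12.7, 15.2 and 11.3 CPM with overlap (0.999-fold, log2 fold change -0.0014 ± 0.10 SE, adjusted p = 0.99).

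**Figure D3:**
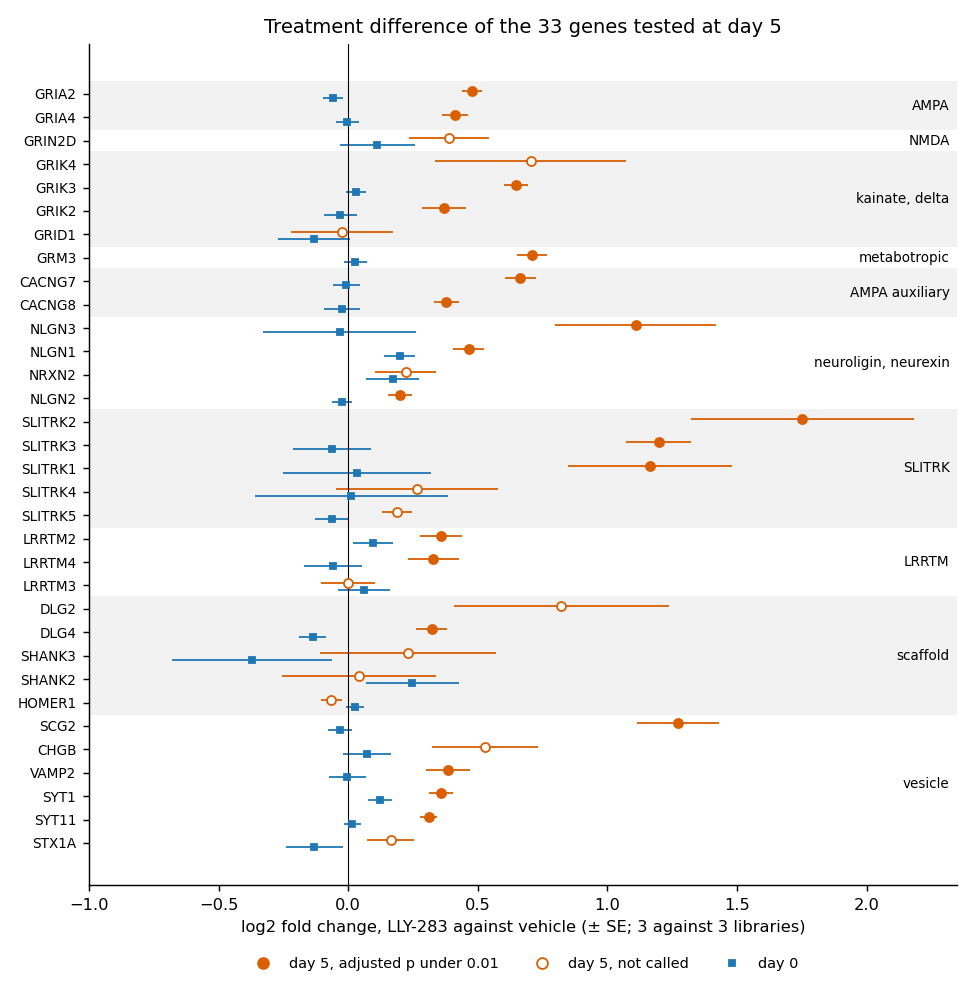
Log2 fold change of LLY-283 against vehicle with its standard error for the 33 genes tested at day 5 (circles, filled where called) and for those of them also tested at day 0 (squares), grouped by role. The day 5 values lie to the right of 0 in 30 genes, while the day 0 values scatter around 0.

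Of the scaffold genes, 1 of 5 tested was higher with LLY-283 than with vehicle. DLG4 (chr17:7187187-7219841), the main scaffold of the postsynaptic density, was at 35.5, 37.3 and 39.7 CPM with vehicle and 43.4, 46.3 and 47.9 CPM with LLY-283 (1.25-fold, log2 fold change 0.32 ± 0.059 SE, adjusted p = 7.3e-05), and its exons overlap those of ACADVL on the opposite strand. HOMER1, which links metabotropic receptors to internal calcium stores and is the most abundant scaffold gene here, was at 108, 110.3 and 113 CPM against 107, 105 and 100.02 CPM (0.956-fold, log2 fold change -0.065 ± 0.039 SE, adjusted p = 0.21). It is the gene whose LLY-283 libraries all lay below vehicle, by a margin that did not pass. DLG2 was at 0.683, 0.526 and 0.295 CPM against 1.11, 0.526 and 1.05 CPM (1.77-fold, log2 fold change 0.82 ± 0.41 SE, adjusted p = 0.13), and SHANK2 and SHANK3 had log2 fold changes of 0.041 and 0.23, with all 3 overlapping between treatments.

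Of the vesicle genes, 4 of 6 tested were higher with LLY-283 than with vehicle. SYT11 (chr1:155859567-155885199), a synaptotagmin and the most abundant of the 50 genes per kilobase at day 0, was at 377, 380.4 and 375 CPM with vehicle and 474, 449 and 457 CPM with LLY-283 (1.24-fold, log2 fold change 0.31 ± 0.034 SE, adjusted p = 3.1e-08). SYT1 (chr12:78863993-79452008), a calcium sensor for vesicle fusion, was at 55, 53.6 and 53.3 CPM against 71, 67.7 and 65.1 CPM (1.28-fold, log2 fold change 0.36 ± 0.047 SE, adjusted p = 7.4e-07). VAMP2 (chr17:8159149-8163546), a SNARE protein of the vesicle membrane, was at 14.5, 13 and 13.7 CPM against 17, 17.7 and 18.2 CPM (1.31-fold, log2 fold change 0.39 ± 0.084 SE, adjusted p = 0.00058). The treatments did not overlap in these 3 genes, with ratios close to one another. The VAMP2 call was lost in 1 of 14 alternative fits, with adjusted p up to 0.01. SYT1 shares exon sequence with an unnamed gene on the opposite strand and VAMP2 with one on its own strand. SCG2 (chr2:223596940-223602361), a granin of dense core vesicles, was at 5.90, 4.40 and 3.10 CPM with vehicle and 10.0, 11.1 and 11 CPM with LLY-283 (2.42-fold, log2 fold change 1.27 ± 0.16 SE, adjusted p = 2.0e-06). The vehicle repeats of SCG2 spread more widely, relative to their level, than its LLY-283 repeats did, without overlap. CHGB, another granin, was at 2.67, 2.43 and 1.92 CPM against 3.56, 3.37 and 3.10 CPM (1.44-fold, log2 fold change 0.53 ± 0.2 SE, adjusted p = 0.043), and STX1A, a plasma membrane SNARE protein, was at 12.3, 12.7 and 11.8 CPM against 13.4, 13.4 and 13.8 CPM (1.12-fold, log2 fold change 0.16 ± 0.09 SE, adjusted p = 0.16).

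Markers of other cell types moved beside these changes, and their part in the results was not tested. No marker is one of the 50 genes. In bulk RNA, more cells of a type and more RNA per cell cannot be told apart. At day 5 the 14 neuronal markers summed to between 548.7 and 561.8 CPM with vehicle and between 679.2 and 688.9 CPM with LLY-283, with 5 of 11 tested higher and 1 lower, and the neurofilament genes NEFL and INA stayed under 10 counts in every library. The 12 oligodendrocyte precursor markers summed to between 5898 and 6157 CPM with vehicle and between 6692 and 6946 CPM with LLY-283 (5 of 9 higher, 1 lower). The 10 astrocyte markers were at 1033 to 1061 CPM with vehicle and 1107 to 1189 CPM with LLY-283 (3 of 7 higher, 2 lower), with AQP4 under 10 counts in every library, and the 8 mature oligodendrocyte markers were at 161.8 to 167.9 CPM with vehicle and 175.3 to 183.0 CPM with LLY-283 (1 of 6 higher), with MBP and MAG under 10 counts. The 10 fibroblast markers were at 220.8 to 385.2 CPM with vehicle and 305.0 to 306.8 CPM with LLY-283 (3 of 9 higher), and the highest value belonged to vehicle repeat 3. Without that library 17 of the 33 genes were called, all higher, and the share of all genes called without it is not given here.

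At day 0 the 2 treatments were compared as a background. Of 32 genes tested, 0 were called by edgeR and 0 by DESeq2, and 3 passed an unadjusted p under 0.05, while 0.0169% of all genes were called and 1012 of 17780 passed the unadjusted threshold. The median log2 fold change of the 32 genes was -0.006, and in 2 of the 32 every LLY-283 library lay above every vehicle library, as in 7.06% of all genes (11.9% did not overlap in either direction). The 3 genes were NLGN1, SYT1 and DLG4, which were singled out after their values were seen. NLGN1 was at 30.7, 32.8 and 28.9 CPM with vehicle and 33.8, 35.9 and 37.4 CPM with LLY-283 already at day 0 (a log2 fold change of 0.2, adjusted p = 0.54), without overlap. SYT1 was at 57.7, 63.8 and 67.1 CPM against 69.7, 69.9 and 67.5 CPM, also without overlap (log2 fold change 0.12, adjusted p = 0.82). DLG4 leaned the other way, at 47, 45 and 42.1 CPM against 39.4, 42.5 and 41.3 CPM (log2 fold change -0.14, adjusted p = 0.85).

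The interaction of treatment with day asked whether the treatment difference at day 5, LLY-283 less vehicle with its sign, differed from that at day 0. Of 35 genes tested, 13 were called with a higher signed difference at day 5 and 0 with a lower one. Of all genes, 14.9% were called, 6.78% in the higher and 8.15% in the lower direction. The 5 with the smallest p were GRIK3 (0.62 ± 0.061 SE on the log2 scale, adjusted p = 2.6e-08), GRIA2 (0.54 ± 0.053 SE on the log2 scale, adjusted p = 3.1e-08), GRM3 (0.69 ± 0.075 SE on the log2 scale, adjusted p = 1.6e-07), CACNG7 (0.68 ± 0.075 SE on the log2 scale, adjusted p = 1.8e-07) and SCG2 (1.30 ± 0.15 SE on the log2 scale, adjusted p = 7.1e-07). The other 7 of the 20 genes called at day 5 did not pass. NLGN1, which already leaned at day 0, was at 0.27 (adjusted p = 0.019), and the adjusted p was 0.012 for CACNG8, 0.039 for SLITRK1, 0.043 for NLGN3, 0.043 for LRRTM4, 0.07 for LRRTM2 and 0.081 for SLITRK2.

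The genes also changed over time in vehicle. Between day 0 and day 5, 6 of 35 tested genes rose and 12 fell in vehicle, where 37.6% of all genes were called, 22.1% higher and 15.4% lower. The members that rose were GRIA2, GRIK3, GRIK4, LRRTM3, LRRTM4 and HOMER1, and those that fell were GRIA4, GRIK2, GRID1, GRM3, CACNG7, DLG4, SHANK2, SYT1, SYT11, VAMP2, SCG2 and CHGB. Day 5 lay wholly above day 0 in 9 of the 35 and wholly below in 15, where 54.9% of all genes did not overlap and 29.2% lay above. GRIK4 passed the count filter through day 5 libraries alone, so its place among the 6 and the 9 was favoured by the filter. The median log2 fold change was -0.2 over the 35 genes and -0.018 over all genes. These tests share the vehicle day 5 libraries with the treatment comparison, so the values are given side by side and not as independent results.

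The granins changed most. SCG2 was at 53.9, 54.9 and 58.3 CPM in the vehicle libraries of day 0 and at 5.90, 4.40 and 3.10 CPM at day 5 (0.0814-fold, log2 fold change -3.62 ± 0.10 SE, adjusted p = 4.8e-19). At day 1 it was at 9.24 CPM with vehicle and 7.64 CPM with LLY-283, so most of the fall was present in the first libraries after day 0, in both treatments. CHGB went from 12.5, 10.4 and 12.2 CPM to 2.67, 2.43 and 1.92 CPM (0.202-fold, log2 fold change -2.31 ± 0.14 SE, adjusted p = 2.8e-14). SHANK2 went from 3.47, 2.91 and 2.45 CPM to 1.30, 1.45 and 1.03 CPM (0.431-fold, log2 fold change -1.22 ± 0.22 SE, adjusted p = 4.8e-05). These 3 genes fell in both treatments, with log2 fold changes in LLY-283 of -2.32, -1.85 and -1.42. GRM3 went from 59.2, 65.3 and 64.6 CPM to 36.9, 34.4 and 33.8 CPM with vehicle (0.555-fold, log2 fold change -0.85 ± 0.056 SE, adjusted p = 2.5e-13). With LLY-283 it was also called lower, by a smaller change (log2 fold change -0.16 ± 0.05 SE, adjusted p = 0.0077). GRID1 went from 5.13, 5.43 and 5.21 CPM to 3.42, 2.83 and 2.95 CPM (0.583-fold, log2 fold change -0.78 ± 0.16 SE, adjusted p = 0.00019).

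Of the genes that rose in vehicle, GRIK4 had the largest fold change and the lowest level, from 0.252, 0.0969 and 0.153 CPM to 0.870, 0.460 and 0.517 CPM (3.61-fold, log2 fold change 1.85 ± 0.57 SE, adjusted p = 0.0078), and its call was lost in 10 of 17 alternative fits. GRIK4 had 5, 2 and 3 counts in the vehicle libraries of day 0. It passed the count filter through day 5 libraries alone, so the filter favoured a rise. LRRTM4 went from 6.54, 7.12 and 6.59 CPM to 10.4, 11.4 and 13 CPM (1.71-fold, log2 fold change 0.77 ± 0.10 SE, adjusted p = 2.8e-07), and GRIA2 from 71.1, 70.7 and 73.2 CPM to 113, 114 and 112 CPM (1.57-fold, log2 fold change 0.65 ± 0.038 SE, adjusted p = 2.3e-14). LRRTM3 went from 8.91, 9.74 and 8.43 CPM to 14.5, 12.9 and 12.3 CPM (1.47-fold, log2 fold change 0.56 ± 0.11 SE, adjusted p = 7.5e-05). GRIK3 went from 73.7, 78 and 76.2 CPM to 108, 102 and 93.6 CPM (1.33-fold, log2 fold change 0.41 ± 0.044 SE, adjusted p = 6.8e-09). For GRIA2 and GRIK3, LLY-283 libraries thus lay further in the direction in which vehicle libraries had moved. For GRM3, SYT11 and VAMP2 the LLY-283 mean at day 5 lay nearer to the day 0 level than the vehicle mean did, and for CACNG7 and GRIA4 it lay above that level while the vehicle mean lay below.

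In LLY-283 libraries, 15 of 35 genes rose and 7 fell from day 0 to day 5, where 39.5% of all genes were called, 22.6% higher and 16.9% lower. Day 5 lay wholly above day 0 in 18 of the 35 and wholly below in 7, where 55.5% of all genes did not overlap and 27.5% lay above. GRIK4 is among the 15 and the 18. With 4, 1 and 0 counts in the LLY-283 libraries of day 0, it passed the count filter through day 5 libraries alone and had to rise. The 15 included GRIA4, CACNG7 and DLG4, which fell in vehicle (log2 fold changes with LLY-283 of 0.22, 0.42 and 0.2). SYT1 and VAMP2, which also fell in vehicle, had log2 fold changes of 0.013 and -0.065 with LLY-283, which did not pass. SYT11 fell in both, by 0.70 on the log2 scale in vehicle and by 0.40 in LLY-283.

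**Figure D4:**
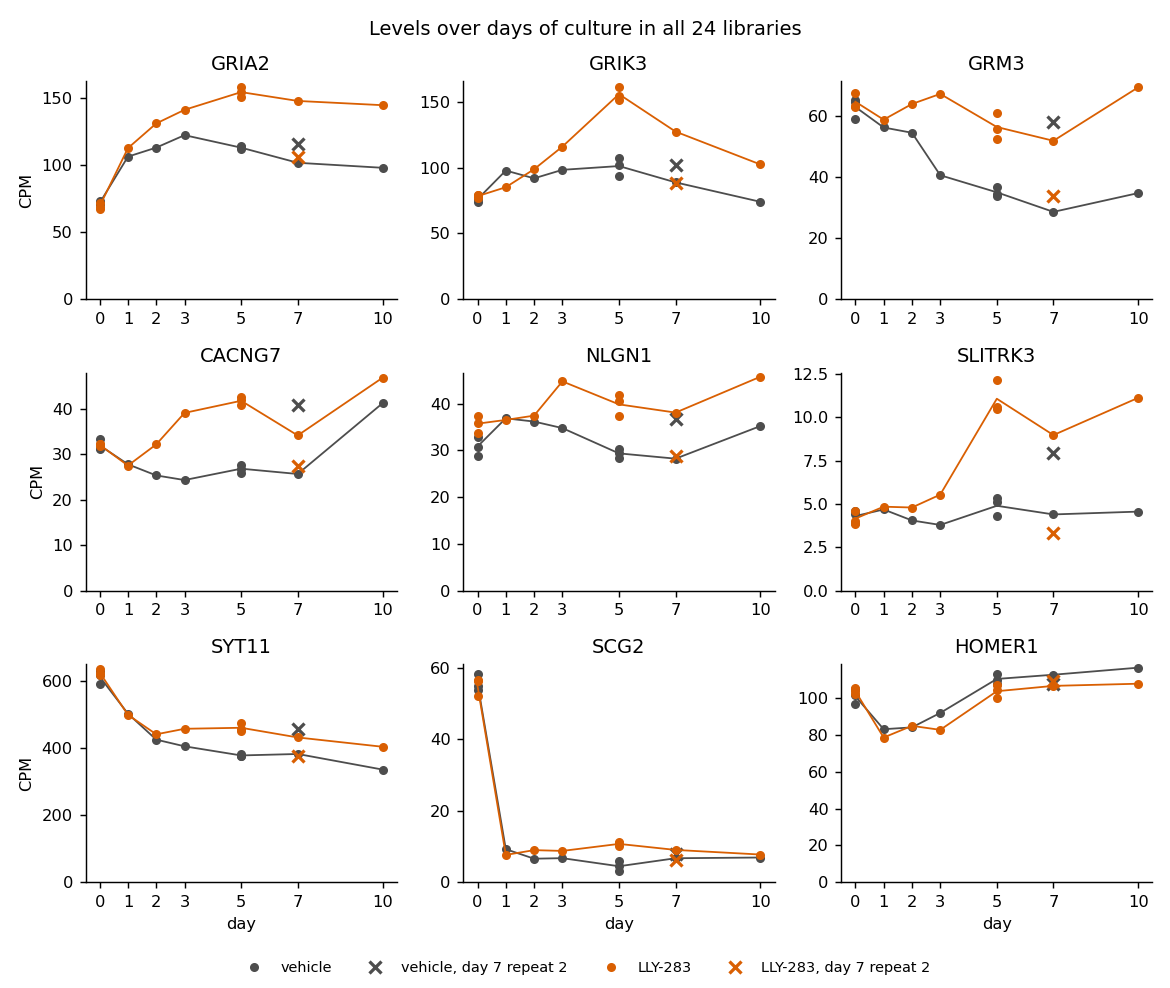
CPM of 9 of the genes in all 24 libraries against day, with a point per library, a line through the mean of each treatment and day, and crosses for the day 7 repeat 2 libraries, which are left out of the lines. LLY-283 lies above vehicle at day 5 in 8 of the 9 genes, HOMER1 being the exception, and the crosses lie in the reverse order in most of them.

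Days 1, 2 and 3 had 1 library per treatment and were tested together with day as a block. Of 31 genes tested, 0 were called by edgeR and 0 by DESeq2, where 0% of all genes were called by edgeR and 10 genes by DESeq2, while 9 of the 31 and 2879 of 17240 genes passed an unadjusted p under 0.05. The log2 difference was positive in 28 of 31 genes with a median of 0.18, against 52.3% positive and a median of 0.01 over all genes. Taken pair by pair, among the 20 genes called at day 5 LLY-283 was above vehicle in 13 on day 1, 17 on day 2 and 19 on day 3, with median log2 differences of 0.05, 0.17 and 0.32. Of all genes tested at day 5, 45.8%, 47.3% and 46.5% were positive in these pairs, and of all 1987 genes called higher at day 5, 56.7%, 74.3% and 87.8%. The libraries of days 1 to 3 took no part in the day 5 test that called the 20. The members themselves were chosen with earlier results of these data known, so these pairs are description and not an independent check. GRM3 was at 56.3 and 58.9 CPM with vehicle and LLY-283 on day 1, 54.6 and 64 CPM on day 2, and 40.6 and 67.3 CPM on day 3. CACNG7 was at 27.8 and 27.5 CPM, then 25.4 and 32.2 CPM, then 24.4 and 39.1 CPM. SLITRK3 was at 3.79 and 5.54 CPM at day 3, a smaller gap than at day 5.

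The day 7 libraries that carry the repeat 2 label stood apart from the rest. Whether the labels of these 2 libraries are exchanged was not tested, and every day 7 value is given by label, so its treatment holds only as far as the label does. By label, 0 of 33 genes were called by edgeR and 0 by DESeq2, where 0% of all genes were called by edgeR and 3 by DESeq2, and 0 of the 33 and 236 of 16826 genes passed an unadjusted p under 0.05. In 2 of the 33 both LLY-283 libraries lay above both vehicle libraries and in 0 below, where 25.7% of all genes did not overlap and 11.8% lay above. Between repeat 1 libraries, LLY-283 was above vehicle in 20 of the 20 genes called at day 5, with a median log2 difference of 0.43, whereas between repeat 2 libraries it was above in 0 of 20, with a median of -0.34. Of all genes called higher at day 5, 91.9% were positive in repeat 1 and 15.7% in repeat 2. GRM3 was at 28.6 and 58 CPM in vehicle repeats 1 and 2 and at 51.9 and 33.9 CPM in LLY-283 repeats 1 and 2. GRIA2 was at 102 and 116 CPM and 148 and 106 CPM, and SLITRK3 at 4.40 and 7.93 CPM and 8.98 and 3.30 CPM in the same order. Without both repeat 2 libraries, an alternative chosen after the values were seen in which 20 libraries share 1 estimate of the spread, 8 genes were called and all were higher with LLY-283. These were CACNG7, GRIA2, SLITRK3, LRRTM2, GRIA4, GRIK3, NLGN1 and GRM3, and 920 of 20714 genes were called in all. Each treatment then had 1 library at day 7, assumed to vary like the other groups.

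At day 10, with 1 library per treatment and no replicate check, LLY-283 was above vehicle in 18 of the 20 genes called at day 5, with a median log2 difference of 0.32, where 49.4% of all genes and 74.2% of all genes called higher at day 5 were positive. GRM3 was at 34.8 CPM with vehicle and 69.5 CPM with LLY-283, GRIA2 at 97.9 and 145 CPM, and SLITRK3 at 4.56 and 11.1 CPM. The 2 exceptions, singled out after their values were seen, were SLITRK1 and SYT1. GRIN2D was higher in both day 10 libraries, at 11.3 and 9.08 CPM, than in any other library.

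**Figure D5:**
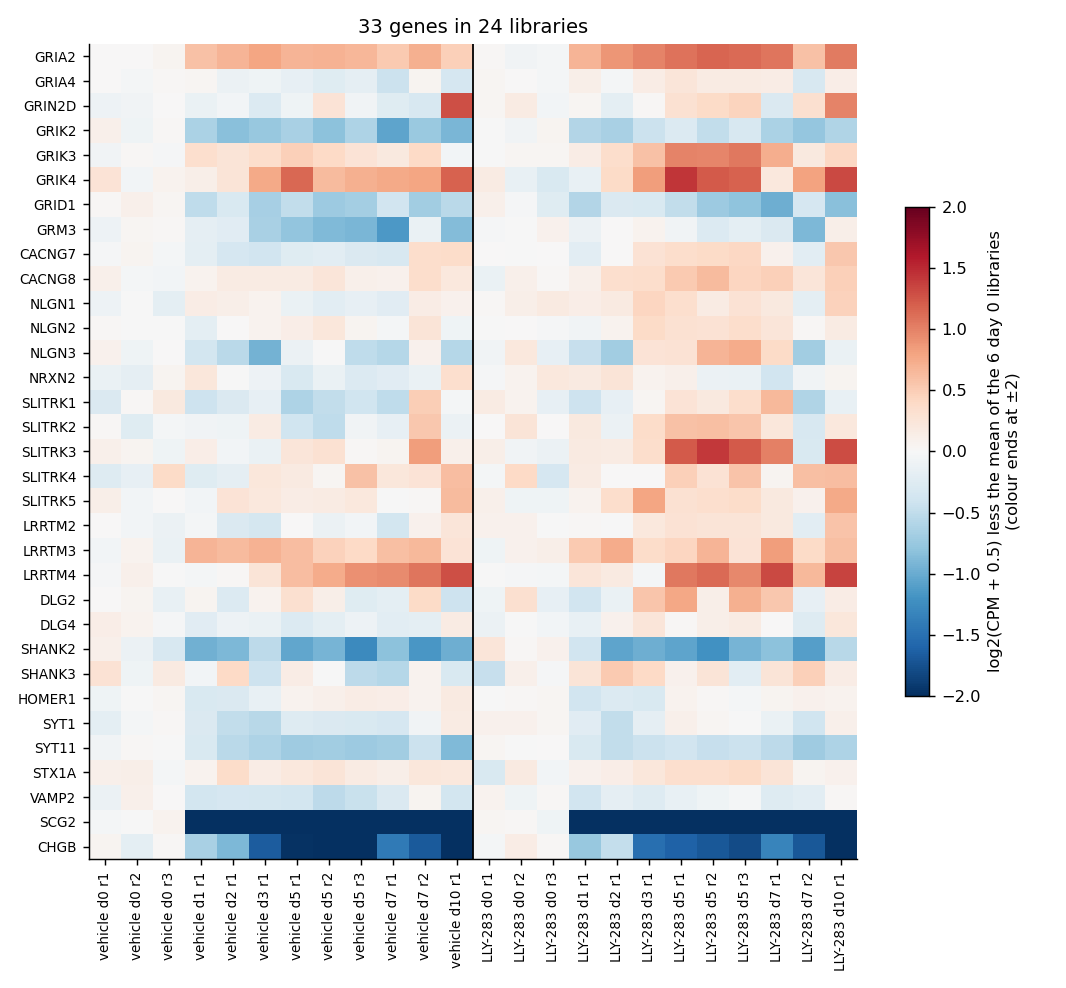
Log2(CPM + 0.5) of the 33 genes tested at day 5 in each of the 24 libraries (d, day, and r, repeat) less the mean of the 6 day 0 libraries, with colours ending at ±2. SCG2 and CHGB are low in every library from day 3 on, and the day 7 repeat 2 columns of either treatment resemble the other treatment in genes such as GRM3 and SLITRK3.

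Other genes of the same pathway, taken from lists written with earlier results of these data known, were counted at day 5 with the same test. These counts stand beside the 12% of all genes called higher and the 14.1% called lower, and nothing is read from a list near those shares, such as the vesicle list below. Of 8 other glutamate receptor genes, all tested, 1 was higher and 1 lower. GRIK1, a kainate receptor subunit, was at 2.95 ± 0.502 CPM with vehicle against 7.04 ± 0.446 CPM with LLY-283 (SD, n = 3 each, log2 fold change 1.28 ± 0.16 SE, adjusted p = 3.4e-07), and GRM8, a metabotropic receptor, at 6.44 ± 0.430 CPM against 3.95 ± 0.707 CPM (SD, n = 3 each, log2 fold change -0.69 ± 0.16 SE, adjusted p = 0.00093). With 1 higher and 1 lower of 8, this list is near the shares of all genes, and nothing is read from its counts.

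Of 37 other adhesion genes 25 were tested, with 12 higher and 2 lower, led by the teneurin TENM1 (log2 fold change 0.57 ± 0.044 SE, adjusted p = 6.5e-11), the cell adhesion gene CADM4 (log2 fold change 0.48 ± 0.041 SE, adjusted p = 4.5e-10) and the calsyntenin CLSTN3 (log2 fold change 0.81 ± 0.074 SE, adjusted p = 1.3e-09). Of 24 other scaffold and auxiliary genes 17 were tested, with 5 higher and 1 lower, led by the calcium-dependent kinase gene CAMK2B (log2 fold change 0.55 ± 0.053 SE, adjusted p = 4.6e-09), the AMPA receptor auxiliary gene CNIH3 (log2 fold change 0.46 ± 0.056 SE, adjusted p = 2.5e-07) and DLGAP1, which binds DLG4 (log2 fold change 0.46 ± 0.069 SE, adjusted p = 4.4e-06). Of 40 other vesicle genes 27 were tested, with 3 higher and 3 lower, led by the active zone gene RIMS1 (log2 fold change 1.06 ± 0.12 SE, adjusted p = 2.7e-07), the prohormone-processing gene CPE (log2 fold change 0.30 ± 0.042 SE, adjusted p = 2.9e-06) and the synaptotagmin SYT7 (log2 fold change -0.53 ± 0.10 SE, adjusted p = 0.00016). Of 12 genes for glutamate transport and metabolism 8 were tested, with 2 higher and 2 lower, led by GLUL, the glutamine synthetase (log2 fold change 0.25 ± 0.035 SE, adjusted p = 1.9e-06), and the transporters SLC38A1 (log2 fold change -0.18 ± 0.035 SE, adjusted p = 0.00017) and SLC1A3 (log2 fold change -0.18 ± 0.036 SE, adjusted p = 0.00026). The median log2 fold change was 0.38 for the 33 members tested and 0.02 for all genes. In the lists it was 0.17 for adhesion, 0.05 for scaffold and auxiliary, 0.05 for vesicle and 0.14 for glutamate handling genes. For the 8 other glutamate receptor genes it was 0.59, but only 1 was called higher and 1 lower, so nothing is read from that median.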

How the data were processed

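RNA-seq of HSJD-DIPG-007 cells was analysed from the deposited table of gene counts for 24 libraries. The authors made these estimated counts with kallisto (version not given in the sources used here) on hg38, per the labels, and deposited them as whole numbers per Ensembl gene, not normalized. Whether counting used strand is not stated. Groups came from the labels. Gene symbols and exons came from GENCODE on GRCh38 (58207 of 58676 identifiers matched), and promoters from RefSeq.

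The members and the lists were chosen with earlier results of these data known. Each of the 7 comparisons was fitted over all genes that passed filterByExpr, with edgeR 4.0.16 in R 4.3.3 (TMM, robust quasi-likelihood F test, Benjamini-Hochberg adjustment, called at adjusted p under 0.01). Days 0 and 5 were each fitted on their 6 libraries, changes over time and the interaction on 12, and days 1 to 3 with day as a block. CPM in the text use TMM factors over 24 libraries, and log2 differences of single pairs add a prior count of 2. Scripts were tested on simulated data.

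Named with values in each library were the genes called at day 5, the 5 with the largest called change in vehicle in each direction and the 5 with the smallest interaction p. Other members have ranges, levels or highest counts, and the 3 genes of smallest p are named for each wider list, except 1 gene that is not reported here. DESeq2 1.42.0, other scalings and filters, a threshold of 0.05, other sets of libraries, a replicate block and leaving out each library were tried as alternatives. The totals of 13835205 to 23190369 counts limit genes at a few counts. Repeat libraries differed by more than sampling noise (chi-square per degree of freedom of 1.65 to 3.79 at days 0 and 5, and 11.2 and 13.4 at day 7). Each was counted as a sample, although this spread does not show that technical repeats are independent cultures.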

Additional observations from a re-analysis of the deposited data

Results flagged for a closer look

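For 13 of the 35 genes tested, of the 50, the signed difference between LLY-283 and vehicle was larger at day 5 than at day 0. They are listed here because they passed the interaction test of edgeR at an adjusted p under 0.01. Of all genes, 6.78% were called in this direction and 8.15% in the other. The excess at day 5 on the log2 scale was 0.62 for GRIK3, 0.54 for GRIA2, 0.69 for GRM3, 0.68 for CACNG7 and 1.3 for SCG2. For SLITRK3 it was 1.26 (adjusted p = 1.1e-05), for SYT11 0.3 (adjusted p = 1.9e-05), for GRIA4 0.42 (adjusted p = 2.2e-05) and for DLG4 0.46 (adjusted p = 9.4e-05). The 4 others were nearer the threshold, with 0.41 for GRIK2 (adjusted p = 0.0054), 0.23 for NLGN2 (adjusted p = 0.0059), 0.39 for VAMP2 (adjusted p = 0.0071) and 0.24 for SYT1 (adjusted p = 0.0094). DLG4 and SYT1 were the members of this group with day 0 differences over 0.1 in size, at -0.14 and 0.12 on the log2 scale.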

How the results depend on the processing

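Counts of called members held within 1.5 times under most alternatives. At day 5 the count was 20, fell to 11 (all higher) when 22 libraries of days 0 to 7 shared the spread, with 2042 genes called in all against 4304, and was 14 with DESeq2. Over days 1 to 3 it went from 0 to 2 (CACNG7 and GRM3) with no filter on low counts, with 517 genes called against 0. At day 7 it went from 0 to 8 without both repeat 2 libraries, an alternative chosen after seeing the data, and genes called in all went from 0 to 920. The cause was not tested. At day 0, genes called in all were 3, and 56 with no filter.

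Leaving out each library in turn gave 15 to 18 called members at day 5, 0 at day 0, 0 at day 7, 0 over days 1 to 3, 16 to 18 for vehicle over time, 19 to 23 for LLY-283 over time and 10 to 11 for the interaction. Counts over all genes are not given here for these fits, for DESeq2 at day 5 or for the replicate block below. Changes in those member counts therefore cannot be told from changes in calling over all genes. Among single genes called in the main fits, 508 alternative values stayed on the same side of the threshold, 48 lost their call and 0 reversed. Only called genes were followed, so calls gained by other genes were not counted. The alternatives reuse most of the same libraries, so the 0 is not an independent check of direction. At day 5, calls were lost most often for SLITRK1 (8 of 14), LRRTM4 (7 of 14) and NLGN3 (6 of 13), all at low or moderate counts.

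The repeat numbers showed no pairing of the libraries at days 0 and 5, where same-numbered libraries had correlations of their deviations between -0.0583 and 0.015. At day 7, with 2 libraries per treatment, both repeats give the same value by construction. That value was -0.1639 and cannot decide whether the numbers pair the libraries. With the replicate number as a block, called members were 20 at day 5, 0 at day 0, 17 for vehicle over time, 22 for LLY-283 over time, 11 for the interaction and 0 at day 7. With the numbers crossed at day 7, chosen after seeing the data, 0 members and 36 genes were called.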
